A study of Mus musculus with 41 samples.

Results

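Mdm2 and 9 genes beside it on mouse chromosome 10 (Rab3ip, Cct2, Frs2, Yeats4, Cpsf6, Cpm, Slc35e3, Nup107 and Rap1b) were followed tumor by tumor, 10 genes of 47480 listed symbols. They were chosen by position and because earlier results on these same tumors showed some of them high together with Mdm2 and some of them high without it, so their levels in single tumors are given as a description and carry no test. All 10 genes had a mean normalized value of at least 10 and were among the 17208 genes that passed this filter.

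RNA was sequenced from 41 mouse mammary tumors on a Balb/c background, 28 Plk2-/-; p53-/- and 13 p53-/-. The tumors of both genotypes lacked p53, and the labels name no treatment. According to the study, tumors of both genotypes were grown by transplantation in Balb/c mice. The Plk2-/-; p53-/- line of tumors began with mammary epithelial cells of double-null mice placed into the cleared fat pads of wild-type recipients. Pieces of these tumors were kept for later implantation, and the labels do not say which samples had been passed on in this way. Every stromal, vascular and blood cell in a sample can therefore be a host cell that carries Plk2 and p53, and the labels do not say which tumors descend from one another. Tumors that share an origin are not independent replicates, so the p-values below measure the spread between these samples only. Each tumor is 1 library and is named here by its number, as PLK2null-1963 or p53null-2224L, and T11 is a p53-/- tumor. The titles of the 13 p53-/- tumors end in a name and number that the titles of the 28 others lack. The labels do not say what this ending marks, and it cannot be told apart from genotype.

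Mdm2 is a ubiquitin ligase that binds p53, blocks its activity and marks it for destruction, and it is itself switched on by p53. Its partner Mdm4 works in the same complex, the Arf product of Cdkn2a and the ribosomal proteins Rpl5 and Rpl11 restrain it, and the deubiquitinases Usp7 and Usp2 stabilize it. In human cancers the segment around MDM2 is amplified recurrently, in liposarcoma often with CDK4, and its neighbors are carried along to differing extents.

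The genes span less than 1 Mb on GRCm38 (mm10, GENCODE vM21). In chromosome order they are Rab3ip (chr10:116905784-116950769), Cct2 (chr10:117051001-117063814), Frs2 (chr10:117069427-117148534), Yeats4 (chr10:117215221-117224507), Cpsf6 (chr10:117344673-117380015), Cpm (chr10:117629500-117687352), Mdm2 (chr10:117688875-117710758), Slc35e3 (chr10:117733679-117746365), Nup107 (chr10:117750621-117792705) and Rap1b (chr10:117813871-117846035). Cpm lies on the plus strand and the others on the minus strand. Measured from start to start, Rab3ip was 783 kb to the left of Mdm2 and Rap1b 125 kb to its right.

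The 250 bases before the RefSeq start (GRCm38.p6) are printed for 4 of the genes, all on the minus strand. Mdm2 and Nup107 were high in 1 set of tumors, Yeats4 was high in these and in others, and Cpsf6 lies between them on the chromosome. Capitals mark matches on either strand to the GC box (GGGCGG), the CCAAT box (CCAAT) and the NRF1 core (CGCATGCG).
Mdm2, chr10:117710759-117711008: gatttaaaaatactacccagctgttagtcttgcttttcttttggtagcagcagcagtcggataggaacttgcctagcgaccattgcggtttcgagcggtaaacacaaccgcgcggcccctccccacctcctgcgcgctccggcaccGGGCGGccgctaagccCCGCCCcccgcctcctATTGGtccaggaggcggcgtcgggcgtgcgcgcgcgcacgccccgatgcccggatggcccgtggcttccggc
Nup107, chr10:117792706-117792955: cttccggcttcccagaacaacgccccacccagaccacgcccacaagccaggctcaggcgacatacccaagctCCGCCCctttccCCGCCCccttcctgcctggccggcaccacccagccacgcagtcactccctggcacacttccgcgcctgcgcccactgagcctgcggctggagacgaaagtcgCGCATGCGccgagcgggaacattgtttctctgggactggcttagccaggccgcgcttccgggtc
Yeats4, chr10:117224508-117224757: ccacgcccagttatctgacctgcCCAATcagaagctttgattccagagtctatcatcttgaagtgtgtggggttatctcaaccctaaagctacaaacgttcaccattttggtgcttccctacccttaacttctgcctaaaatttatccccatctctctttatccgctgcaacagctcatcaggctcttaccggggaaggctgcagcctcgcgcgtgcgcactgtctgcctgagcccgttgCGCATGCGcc
Cpsf6, chr10:117376974-117377223: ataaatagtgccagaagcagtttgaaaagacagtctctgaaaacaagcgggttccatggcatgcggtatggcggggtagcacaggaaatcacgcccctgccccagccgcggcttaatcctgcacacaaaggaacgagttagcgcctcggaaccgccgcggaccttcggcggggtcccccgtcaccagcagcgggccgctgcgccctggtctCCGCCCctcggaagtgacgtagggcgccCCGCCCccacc
The Mdm2 sequence held 2 GC boxes and 1 CCAAT box, and those of Cpsf6 and Nup107 held 2 GC boxes each. The NRF1 core stood in the Nup107 and Yeats4 sequences, whose tumor patterns differed, and was in 1.55% of all 32851 promoters. GC boxes were in 32.7% and CCAAT boxes in 33.8% of all promoters. TATAAA, in 12.4% of all promoters, was in none of the promoters of the 10 genes, and CACGTG, in 6.02%, was in that of Slc35e3. These are matches of letters and do not show that a factor bound.

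The estimated counts that the normalized values rest on came to between 29409609 and 70868124 fragments per tumor, so that 1 fragment was worth between 0.388 and 0.817 units. The lowest member value in any tumor was Cpm in T11, 10.4 units or about 24 fragments, and the other 9 genes had at least 270 fragments in every tumor. Plk2 was at a median of 284 in the Plk2-/-; p53-/- tumors (37 to 553) and 3402 in the p53-/- tumors (186 to 8028). A single p53-/- tumor, p53null-7435, fell within the range of the deleted tumors. Epithelial markers (6 of 6 listed genes present) summed to between 48.0 in PLK2null-743 and 276620 in p53null-2396R, and PLK2null-733 and PLK2null-732 were also low, at 72.5 and 361. These 3 tumors carry the label of mammary tumors but had almost no epithelial marker RNA.

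Per kilobase of exon, the median over the 41 tumors was highest for Cct2, a subunit of the CCT chaperonin that folds actin and tubulin, at 3385 units per kb. It was next highest for Rap1b, a small GTPase of integrin signaling, at 1635, and for Yeats4, a reader of acetylated histones, at 557. Mdm2 followed at 330 units per kb, level with Slc35e3, a member of a nucleotide-sugar transporter family, at 329. Cpm, a membrane-anchored carboxypeptidase, was the lowest at 98.5.

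Mdm2 was high in 6 of the 41 tumors. Its value was 32230 in p53null-2224L, 19585 in PLK2null-7747, 19565 in PLK2null-1963, 18245 in PLK2null-1964, 13406 in PLK2null-1965 and 5651 in p53null-5317. The median over all tumors was 1678, so these values were 19.2, 11.7, 11.7, 10.9, 7.99 and 3.37 times the median. In the other 35 tumors Mdm2 stayed between 808 and 2469, or 0.481 to 1.47 times the median, and no tumor lay between 2469 and 5651. A value is called raised here where it is at least 2 times the median of its gene over the 41 tumors. By this rule 87 of the 410 member values were raised, against 11.7% of all values of all genes tested, and since the genes were chosen for these values nothing is read from the difference. Because whole tumors were sequenced, a lower value can come from fewer cells of a type or from less RNA per cell, and the 2 cannot be told apart.

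**Figure D1:**
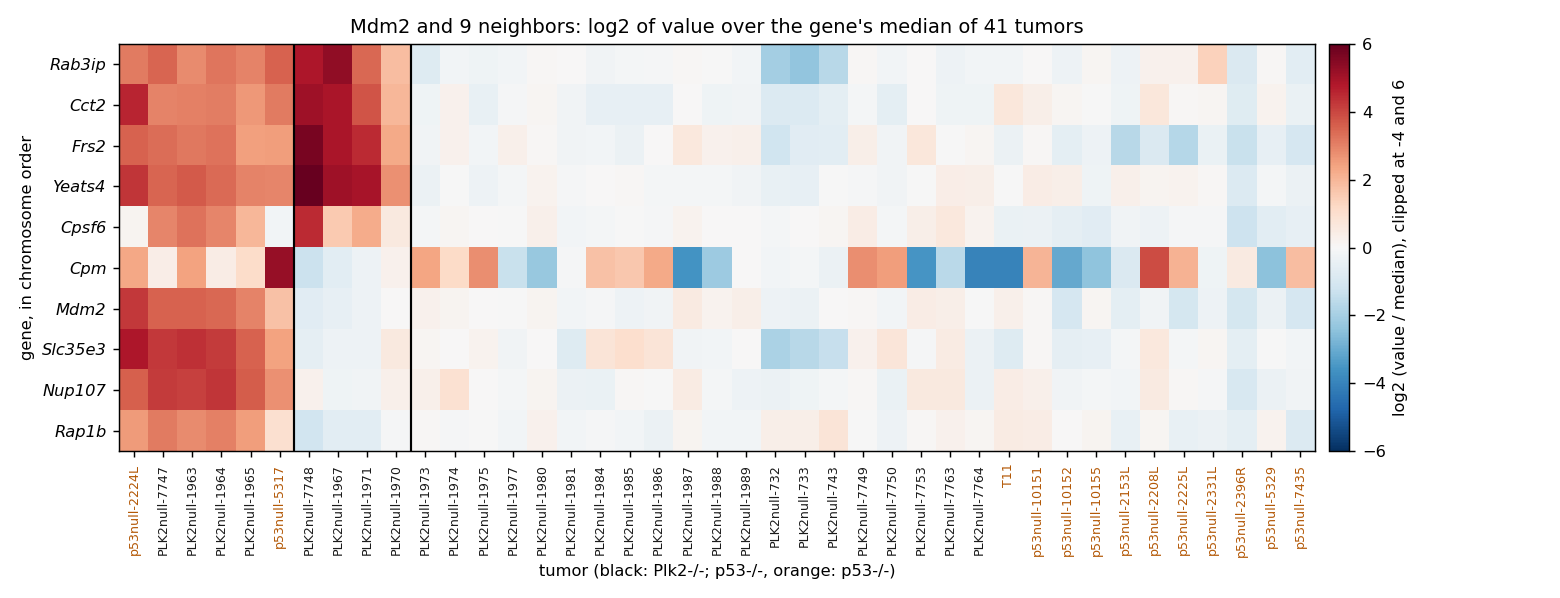
Heat map of the 10 genes (rows, in chromosome order) in the 41 tumors (columns), colored by log2 of the value over the gene's median, clipped at -4 and 6. The black lines set off 6 tumors with Mdm2 raised and 4 tumors with Rab3ip, Cct2, Frs2 and Yeats4 raised but Mdm2 not raised. In the remaining 31 tumors Cpm ranges from 0.018 to 15.3 times its median, and Rab3ip and Slc35e3 are low in PLK2null-732, PLK2null-733 and PLK2null-743, at 0.20 to 0.38 times their medians.

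In the 6 tumors with Mdm2 raised, 49 of the 54 values of the 9 neighbors were raised too (90.7%), against 14.3% of all genes tested in those tumors. The nearest genes on the right followed Mdm2 closely. Slc35e3, 44.8 kb away, was 33706 in p53null-2224L, 24267 in PLK2null-1963, 21953 in PLK2null-7747, 21003 in PLK2null-1964, 13420 in PLK2null-1965 and 6253 in p53null-5317, which was 5.39 to 29.0 times its median of 1161. Nup107, a scaffold nucleoporin of the nuclear pore, was 16972 in PLK2null-1964, 15847 in PLK2null-7747, 14954 in PLK2null-1963, 10836 in PLK2null-1965, 10362 in p53null-2224L and 5773 in p53null-5317, or 6.65 to 19.5 times its median of 868. Mdm2, Slc35e3 and Nup107 were thus raised in the same 6 tumors and in none of the other 35. This rests on the limit of 2 times the median: at 1.5 times, Slc35e3 was raised in 11 tumors and Nup107 in 7, and Mdm2 still in 6. No gene outside the 10 was raised in exactly these 6 tumors. Rap1b was 40720 in PLK2null-7747, 38888 in PLK2null-1964, 33190 in PLK2null-1963, 27680 in p53null-2224L and 26757 in PLK2null-1965, and in p53null-5317 it was 9214, just under the limit at 1.95 times its median of 4714. In the 31 tumors with at most 1 member other than Cpm raised, Slc35e3 reached 1.99 times its median in PLK2null-1985 and Nup107 reached 1.90 times in PLK2null-1974, the values nearest to the limit from below.

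The order of the genes within a tumor differed. In p53null-2224L the highest ratios were those of Slc35e3 (29.0), Cct2 (24.1), Yeats4 (19.6) and Mdm2 (19.2). In PLK2null-7747, PLK2null-1963, PLK2null-1964 and PLK2null-1965 Nup107 and Slc35e3 led, at 11.6 to 20.9 times their medians, and Mdm2 was below both. In p53null-5317 Mdm2 had the lowest ratio of the 8 raised genes, and Cpm, at 22197 units or 37.8 times its median, the highest. Cpsf6, an RNA-binding subunit of cleavage factor Im in mRNA 3-prime end processing, was raised in the 4 Plk2-/-; p53-/- tumors of this set (13413 to 31958, or 4.02 to 9.59 times its median). It was not raised in the 2 p53-/- tumors, where it was 3763 and 2952, or 1.13 and 0.89 times the median.

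The 4 genes on the left, Rab3ip, Cct2, Frs2 and Yeats4, were raised in these 6 tumors and also in 4 Plk2-/-; p53-/- tumors in which Mdm2 was not. Yeats4 was 64154 in PLK2null-7748, 26982 in PLK2null-1967, 24229 in PLK2null-1971 and 5224 in PLK2null-1970, which was 81.3, 34.2, 30.7 and 6.62 times its median of 789. Frs2, the adaptor that links FGF receptors to Ras signaling, was 60142, 35009, 25538 and 5632 in the same order, or 51.9, 30.2, 22 and 4.86 times its median. Mdm2 in these tumors was 1052, 1180, 1342 and 1678, that is 0.627 to 1 times its median. The left-hand genes therefore reached their highest levels in tumors where Mdm2 was at or below its median.

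Cct2 was 293285 in PLK2null-7748, 256950 in PLK2null-1967, 119708 in PLK2null-1971 and 34362 in PLK2null-1970, against a median of 8655. Rab3ip, an exchange factor for Rab8 in the making of cilia, was 24014, 32582, 8961 and 2968 in the same order, against a median of 825. PLK2null-1970 had the smallest rise of each of the 4 genes, but for all 4 it was still above every tumor outside the 10. In the 31 remaining tumors Cct2 reached at most 1.63, Frs2 1.58 and Yeats4 1.37 times the median, against at least 3.97, 4.86 and 6.62 times in the 10. Rab3ip was also raised by itself in p53null-2331L, at 2129 or 2.58 times its median. The summed values of the 10 genes made up 2.16% of all values in PLK2null-7748 and 1.46% in PLK2null-1967, against 0.0486% in p53null-2396R, the lowest tumor.

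Cpsf6 was raised in 3 of these 4 tumors, at 73046 in PLK2null-7748, 15537 in PLK2null-1971 and 9748 in PLK2null-1967, and was 5006 in PLK2null-1970, or 1.5 times its median. Slc35e3, Nup107 and Rap1b were not raised in any of the 4, with ratios between 0.447 and 1.48. Across the 35 tumors without raised Mdm2, 32 of 315 neighbor values were raised, against 11.3% of all genes tested in those tumors. Of these, 12 were Cpm and 20 were other genes, 19 of them in PLK2null-7748, PLK2null-1967, PLK2null-1971 and PLK2null-1970 and 1 in p53null-2331L.

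Cpm stood apart from its neighbors although it is the gene next to Mdm2. Its value ran from 10.4 in T11 to 22197 in p53null-5317, and it was raised in 16 tumors, 12 of them without raised Mdm2. The highest of the 12 were p53null-2208L at 8969, PLK2null-1975 at 4099, PLK2null-7749 at 4010 and PLK2null-7750 at 3358, or 15.3, 6.98, 6.82 and 5.71 times its median of 588. In PLK2null-7747 and PLK2null-1964, where Mdm2 was above 10 times its median, Cpm was 777 and 794, or 1.32 and 1.35 times its median. The values just inside the limit of 2 times the median were Cpm in PLK2null-1965 (2.15) and PLK2null-1974 (2.24). Over the 41 tumors the Spearman correlation of Cpm with Mdm2 was 0.08.

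The 55 tested genes that start within 5 Mb of Mdm2 show how far the raised values ran, and runs are read among the 38 of them with a median of at least 100. Some of the 55 have low medians and passed the mean filter through high tumors, such as 9530003J23Rik with a median of 0.548 and a mean of 27.6. Counts among the 38 are therefore given as well. In PLK2null-7747, PLK2null-1963, PLK2null-1964 and PLK2null-1965, 45, 48, 46 and 45 of the 55 genes were raised, against at most 15.8% of all genes tested in any of these tumors. Of the 38 genes, 33 were raised in PLK2null-1963 and 31 each in PLK2null-7747, PLK2null-1964 and PLK2null-1965. Raised genes reached from Atxn7l3b, 4.76 Mb to the left, to at least BC048403, 4.05 Mb to the right, but they formed no single unbroken run. Cnot2 to Yeats4 was unbroken in each of these tumors. The run through Mdm2 went from Cpsf6 to Helb in PLK2null-1963 and from Cpsf6 to Llph in PLK2null-1965. In PLK2null-1964 and PLK2null-7747 it went from Mdm2 to Llph. Not every gene in the span was raised. Hmga2, a chromatin protein that is often amplified with MDM2 in human tumors, was at 0.12 to 0.20 times its median, and Lyz2, a lysozyme of myeloid cells, at 0.39 to 1.26 times. Wif1, a secreted Wnt inhibitor 3.35 Mb to the right, had the highest ratio of the 38 genes in each of these tumors, at 28.3 to 142 times its median, but it was raised in 16 tumors in all.

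The other 6 tumors had fewer raised genes in the window, and their runs differed. In p53null-2224L 20 of 55 genes were raised, against 11.4% of all genes, with Rab3ip to Yeats4 on 1 side of Cpsf6 and Cpm to Cand1, 1.51 Mb to the right, on the other. In p53null-5317 24 of 55 were raised, against 14.4%, and on the left they began with Atxn7l3b, at 10.4 times its median. On the right Wif1 stood apart, at 27.7 times: of the 38 genes, none between Nup107 and Wif1 was raised. The raised genes of p53null-5317 did not form 1 stretch. Cnot2 to Yeats4 and Cpm to Nup107 were unbroken, and Zfc3h1 (1.05), Ptprb (0.62), Lyz2 (0.69) and Cpsf6 (0.89) were not raised. Mdm1, 0.45 Mb to the right of Mdm2, was at 0.84 times its median there and at 9.67 to 24.6 times in the other 5 tumors with raised Mdm2. Of the 38 genes with a median of at least 100, 13 were raised in p53null-2224L and 15 in p53null-5317. In PLK2null-7748, PLK2null-1967, PLK2null-1970 and PLK2null-1971 18 of 55 genes were raised in each, against 9.01% to 16.1% of all genes. Among the 38 genes the count was only 8 in PLK2null-7748 and 7 each in PLK2null-1967, PLK2null-1970 and PLK2null-1971, so most of each 18 were genes with lower medians. The run there began at Cnot2, 1.2 Mb to the left and 2.81 to 21.6 times its median, and none of the 38 genes from Cpm to Tbk1 other than Wif1 was raised. Among genes with lower medians, Grip1 was raised in PLK2null-1970 and PLK2null-1971, at 3.16 and 4.99 times its median, and so was 9230105E05Rik, at 3.15 and 2.64 times. The count of raised genes in the window was 0 to 14 (median 5) in the 31 remaining tumors.

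**Figure D2:**
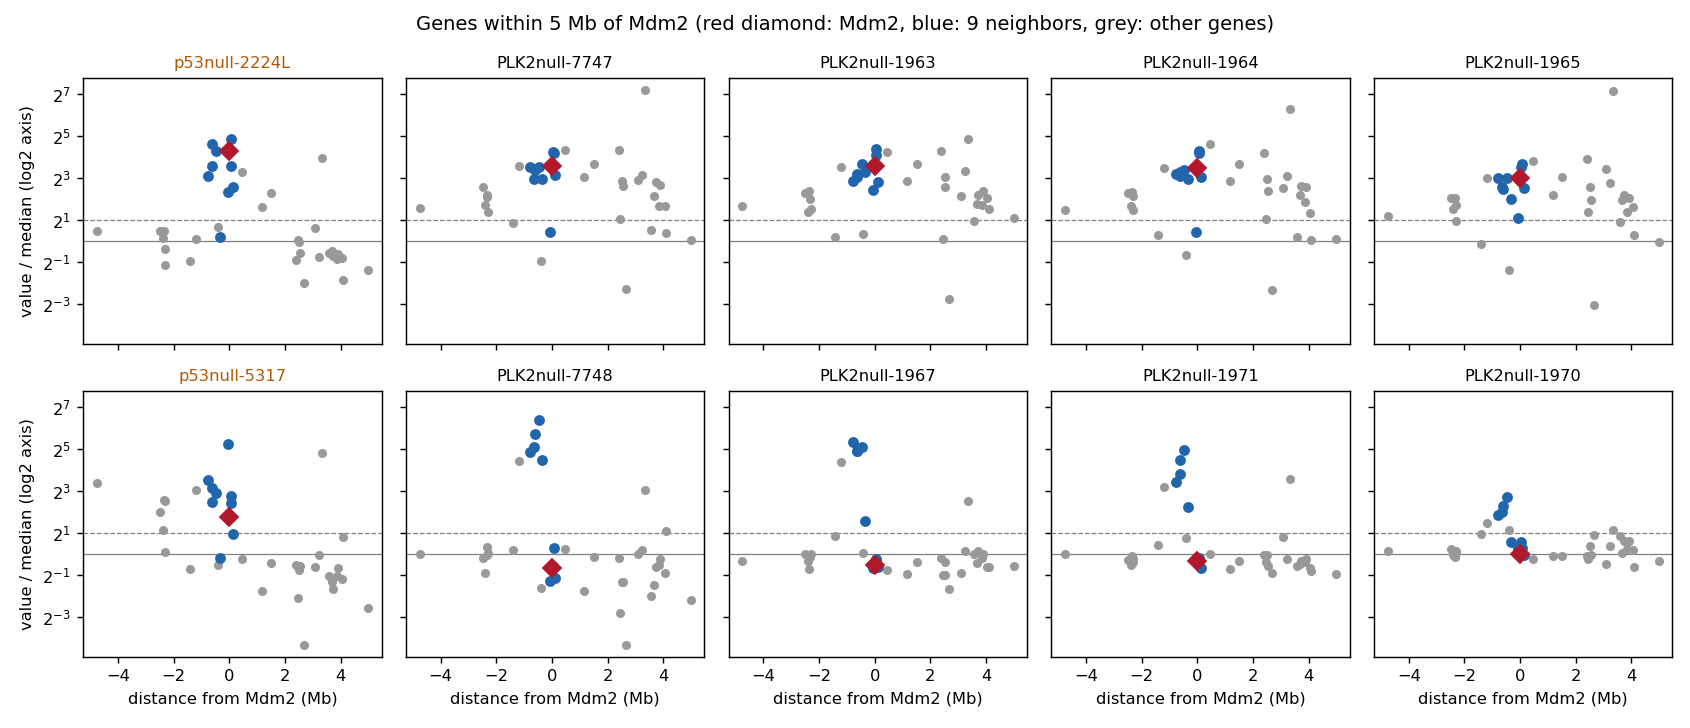
Value over the gene's median (log2 axis) against distance from the start of Mdm2 in Mb, for the 38 genes within 5 Mb with a median of at least 100, in 10 tumors. Values under 0.05 are drawn at 0.05, the solid line marks the median and the dashed line 2 times the median. In PLK2null-7748, PLK2null-1967, PLK2null-1971 and PLK2null-1970 the run of high points around Yeats4 ends left of Mdm2, with Wif1 (2.20 to 11.7) and, in PLK2null-7748, Srgap1 (2.09) as separate points above the dashed line to its right. In PLK2null-7747, PLK2null-1963, PLK2null-1964 and PLK2null-1965 high points lie across the window.

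The values are of RNA, and DNA was not analysed here. Over the 1000 most variable genes outside the window, PLK2null-7747, PLK2null-1963, PLK2null-1964 and PLK2null-1965 correlated with each other at 0.647 to 0.908, so they were alike in many genes besides these. Their highest correlation with any other tumor was 0.663, above the lowest within the set. PLK2null-7748, PLK2null-1967, PLK2null-1970 and PLK2null-1971 correlated with each other at 0.165 to 0.528, and with other tumors at up to 0.651. In the 10 tumors with 2 or more members other than Cpm raised, epithelial markers summed to 41634 to 167484, against a median of 80370 over all tumors. Macrophage markers (6 of 6 present) summed to 4496 to 16758 in the 10 tumors against a median of 15863, and were lowest of all 41 in PLK2null-7748. Fibroblast markers (6 of 6) were lowest of all 41 in PLK2null-7747, at 12210 against a median of 52725. Proliferation genes (6 of 6) summed to 24463 to 65192 against a median of 24720, the highest in PLK2null-7748. None of the genes in these 4 lists was at 0 in any of the 10 tumors, and their part in the results was not tested.

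Several of the genes encode subunits of larger machines. The other subunits, whose genes lie outside the window, were not raised in any tumor where the member subunit was raised. These partner lists were drawn up after the member values were seen, and the counts are a description. Of all genes tested, 9.01% (PLK2null-1970) to 16.1% (PLK2null-1971) were raised in these 10 tumors. None of the 7 other CCT subunits was raised in any of the 10 tumors, with ratios between 0.535 and 1.80, while Cct2 was at 3.97 to 33.9 times its median. Of 8 partners of Nup107 in the nuclear pore Y complex, none was raised in the 6 tumors where Nup107 was, and Seh1l was raised in PLK2null-7748 at 2.42 times its median. The other subunits of cleavage factor Im, Nudt21 and Cpsf7, were at 0.712 to 1.28 times their medians in the 10 tumors, while Cpsf6 was raised in 7 of them.

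**Figure D3:**
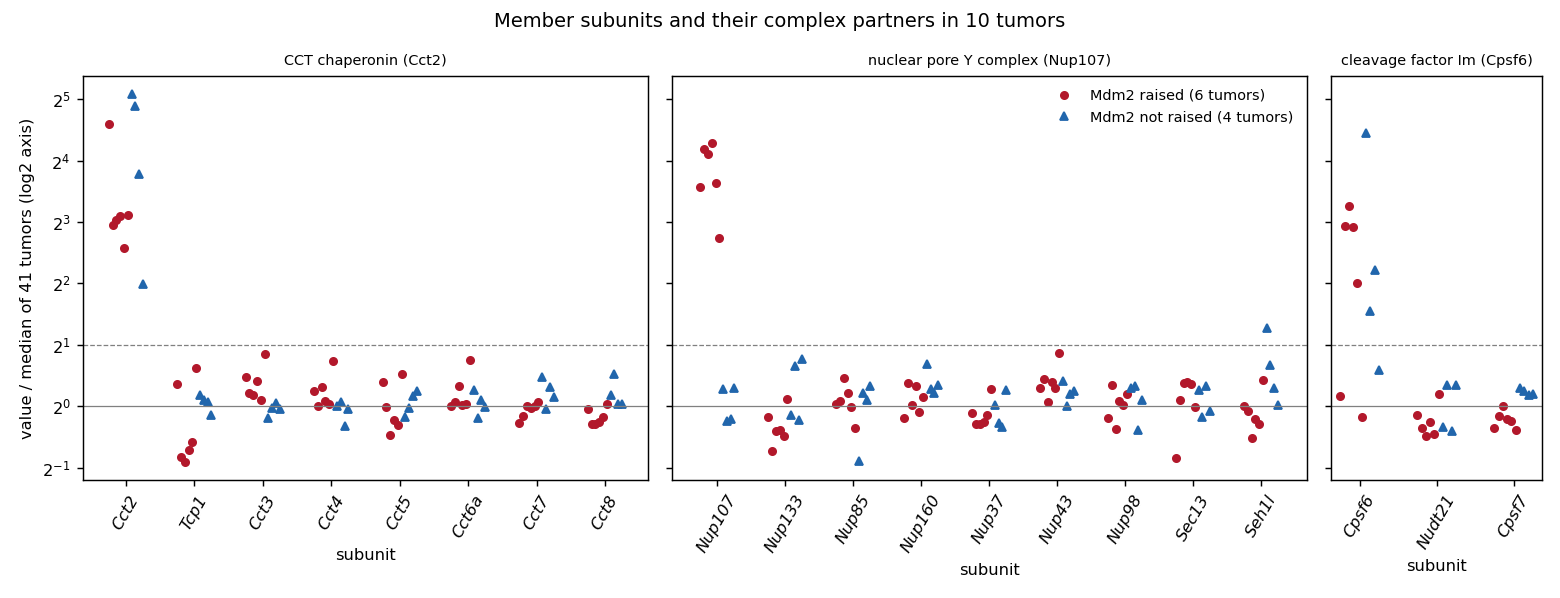
Value over the gene's median (log2 axis) for Cct2, Nup107 and Cpsf6 and for the other subunits of their complexes, 1 point per tumor, in 6 tumors with Mdm2 raised (circles) and 4 with Rab3ip, Cct2, Frs2 and Yeats4 raised but Mdm2 not (triangles). The dashed line marks 2 times the median, and Seh1l in PLK2null-7748 is the single partner value above it.

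Among 18 partners, regulators and targets of Mdm2, 79 of 738 values over the 41 tumors were raised, against 11.7% of all values. Trp63 and Trp73, the p53 relatives, were each raised in all 6 tumors with raised Mdm2, at 2.82 to 10.4 and 2.25 to 168 times their medians, and in 17 and 18 tumors in all. Trp73 had a median of only 6.11, so its ratios are taken over a low base, and its highest value was 1026 in p53null-5317. Mdm4 was raised in 1 of the 6 tumors, PLK2null-1963, at 2.08 times its median, and was at 0.36 and 0.41 times its median in p53null-2224L and p53null-5317. On the log2 scale Mdm4 had a mean of 10.27 in p53-/- and 11.99 in Plk2-/-; p53-/- tumors, so p53-/- tumors were low in Mdm4 as a group. The low ratios of p53null-2224L and p53null-5317 are therefore not particular to tumors with raised Mdm2. Cdkn1a and Bbc3, targets of p53, were not raised in any of the 6, with ratios of 0.449 to 1.91 and 0.539 to 1.79. Ccng1, another p53 target, was raised in p53null-5317 alone among the 6, at 3.72 times its median. Usp7, Rpl23, Daxx, Numb and Mtbp were not raised in any of the 41 tumors.

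Of 22 genes that lie with MDM2 on the amplified human segment and on mouse chromosome 10, 21 passed the filter and Ptprr did not. Over the 41 tumors 179 of their 861 values were raised (20.8%), against 11.7% of all values. In PLK2null-1963, PLK2null-1964, PLK2null-1965 and PLK2null-7747 11 to 14 of the 21 were raised, in p53null-2224L and p53null-5317 7 each, and in PLK2null-7748, PLK2null-1967, PLK2null-1970 and PLK2null-1971 6 to 9. Of all genes tested, 9.01% to 16.1% were raised in these tumors. Most of the 21 also lie in the window above, so the counts repeat it, and some have low medians, such as Best3 (0.817) and Lrrc10 (1.13). Cdk4, the cyclin-dependent kinase of G1, lies 9.37 Mb from Mdm2 in the mouse. It was not raised in any of the 41 tumors and was at 0.774 to 1.04 times its median in the 6 tumors with raised Mdm2. Tspan31 and Os9, next to Cdk4, were not raised in any tumor either. Lemd3, Tbk1 and Xpot, 3.23 to 3.90 Mb to the right of Mdm2, were raised in 4 tumors, all among the 6 with raised Mdm2.

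By Spearman correlation with Mdm2 over the 41 tumors, Rap1b (0.72) and Nup107 (0.70) ranked first and second of all genes tested. Frs2 (0.57) ranked 37, Slc35e3 (0.52) 94, Cpsf6 (0.44) 296, Cct2 (0.31) 1486, Rab3ip (0.26) 2299, Yeats4 (0.21) 3507 and Cpm 7133. The 5 genes outside the members with the highest correlation were Gm7902 (0.69), Samd11, Zfc3h1, Tbc1d15 (each 0.68) and Helb (0.66). Zfc3h1, Tbc1d15 and Helb lie 2.30 and 2.49 Mb to the left and 2.39 Mb to the right of Mdm2, and Gm7902 and Samd11 lie on chromosomes 5 and 4. By shared raised tumors the most like were Tbc1d15 and Rab21, 5 of 6 tumors each, and Pawr, Bag4 and Slc25a15, which were raised in the same 6 tumors and 2 others. Pawr lies on chromosome 10, 9.36 Mb to the left, and Bag4 and Slc25a15 on chromosome 8. The tumors share a normalization and some may share an origin, and these likenesses are a description.

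The comparison of genotypes asked whether Plk2 loss on the p53-/- background went with other levels of these genes. Values were transformed to log2(value + 1) and fitted with limma, p-values of the 17208 genes were adjusted by Benjamini-Hochberg, and fold changes are on that scale. At an adjusted p under 0.05 it called 39.5% of all genes, 24.3% higher and 15.3% lower in Plk2-/-; p53-/- tumors, with a median difference over all genes of 0.10. Of the 10 genes 1 was called, Cpsf6, and their median difference was 0.19. A share of 1 in 10 was below the share of all genes.

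Cpsf6 was 2941 at the lowest, 3720 at the median and 73046 at the highest in the 28 Plk2-/-; p53-/- tumors, and 1413, 2602 and 3763 in the 13 p53-/- tumors. Of the p53-/- tumors 4 were above the lowest Plk2-/-; p53-/- tumor, and 14 of the 28 were above the highest p53-/- tumor. The difference was 1.16 on the log2 scale (SE 0.35, limma adjusted p = 0.0081), higher in Plk2-/-; p53-/- tumors. It included the 7 raised values, all of them in that genotype. These values were known when the genes were chosen, so the p-value is no independent support for a genotype difference. Epithelial markers summed to a median of 70510 in Plk2-/-; p53-/- and 143567 in p53-/- tumors, and proliferation genes to 25086 and 16594, and their part in this difference was not tested.

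Mdm2 was 1052, 1697 and 19585 (lowest, median and highest) in Plk2-/-; p53-/- tumors and 808, 1359 and 32230 in p53-/- tumors, so the groups overlapped over most of their range. Its difference of 0.39 (SE 0.43, limma adjusted p = 0.50) did not pass the test. Without p53null-2224L it was 0.74 (limma adjusted p = 0.13), and over all tumors left out in turn it ran from 0.28 to 0.74. It was raised in 4 of 28 and 2 of 13 tumors. Frs2 was 511, 1382 and 60142 against 357, 819 and 13674, and its difference of 1.23 (SE 0.58, limma adjusted p = 0.090) did not pass either. Without p53null-2224L or without p53null-5317 it passed, at 1.54 and 1.45, with adjusted p of 0.029 and 0.047. For Rab3ip, Cct2, Yeats4, Cpm, Slc35e3, Nup107 and Rap1b the differences ran from -0.27 (SE 0.79, Cpm) to 0.56 (SE 0.61, Yeats4), with limma adjusted p of 0.50 to 0.93. With SEs of 0.34 to 0.79, differences of this size were not detectable in these genes.

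**Figure D4:**
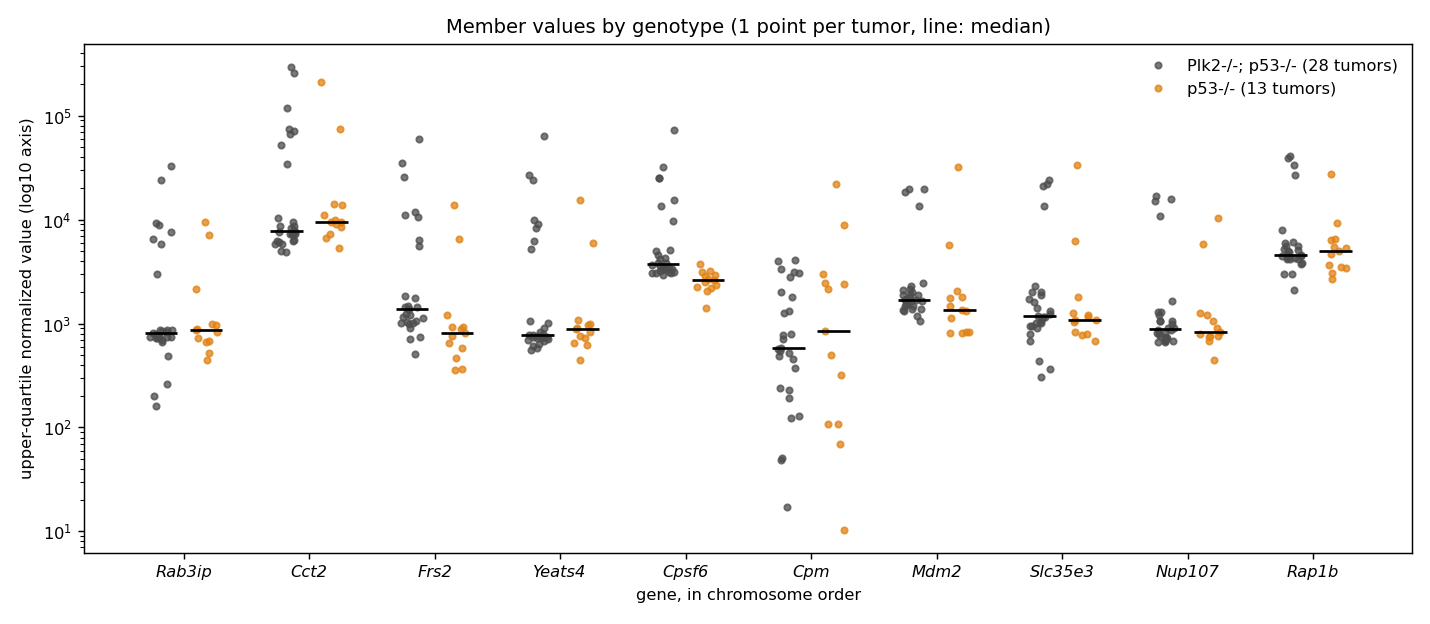
Normalized value (log10 axis) of each of the 10 genes in 28 Plk2-/-; p53-/- and 13 p53-/- tumors, 1 point per tumor with the median as a line. Cpsf6 has medians of 3720 and 2602, and for the other genes high tumors occur in both genotypes.

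Of the 18 partners, regulators and targets of Mdm2, 9 passed the test, 5 higher and 4 lower in Plk2-/-; p53-/- tumors, against 39.5% of all genes, and their median difference was -0.21. The split depended on the scaling, with 4 higher and 6 lower under quantile and 1 higher and 8 lower under TMM scaling. Mdm4 was higher by 1.72 (SE 0.14, limma adjusted p = 1.57e-13), also under both scalings, and Trp53, Usp7, Numb and Mtbp were higher by 0.31 to 0.64. None of these 4 was called under TMM scaling, and Numb was not called under quantile scaling. Rpl5 and Rpl11, ribosomal proteins that bind Mdm2, were lower, at -0.60 and -0.75, and so were Usp2 at -0.84 and Trp73 at -3.73, all 4 also under both scalings. Ribosomal protein genes have many processed copies in the genome, and reads may be split between them. Trp53 RNA was listed in all 41 tumors, between 349 and 5035, although all are p53-/- by label. Of the 21 tested genes of the human segment 2 passed, against 39.5% of all genes. They were Tbk1 at 1.0 and Ptprb, a phosphatase of endothelial cells, at 1.11. Ptprb was highest in PLK2null-743, at 10.7 times its median, and endothelial markers (6 of 6 present) summed to 78025 to 186496 in PLK2null-7763, PLK2null-743, PLK2null-733 and PLK2null-732 against a median of 4886 over all tumors. The part of these tumors in the Ptprb difference was not tested. The median difference of that list was 0.16.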

How the data were processed

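The 41 tumors and the 10 genes, like the gene lists and the limits used, were chosen with earlier results of these data known. RNA was prepared with a TruSeq mRNA kit and read as 50-base pairs. According to the submitters' processing notes and the study's methods, reads were aligned to mm10 with STAR (2.7.6a) and quantified with Salmon (1.4.0), with Picard (2.22.4) and SAMtools also named. The annotation that the authors used is not given in the sources used here. The deposited values are a signal, Salmon's estimated gene counts scaled by the authors in each tumor so that the upper quartile of nonzero values is 1000, and they are not on a log scale. Values behaved as whole numbers of reads (within 0.1 read) for 77.9% to 80.5% of nonzero values, so reads were not recovered and no count model was used. Scaling by an upper quartile makes each value relative to the other genes of a tumor.

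Genotypes came from the labels. Genes with a mean of at least 10 (17208) were tested on log2(value + 1), as the study transformed them, with limma (3.58.1, R 4.3.3) and Benjamini-Hochberg adjustment at 0.05, with no covariate. On simulated data with 200 changed genes among 17208 the step called 178 of them, all in the right direction, and 13 unchanged genes. The planted changes were larger than any difference seen for the 10 genes, and the simulated tumors were independent. The simulation therefore does not show how well differences of the size seen here are found, or what related tumors do to the calls. Raised values (at least 2 times the median over 41 tumors), runs along the chromosome and correlations are descriptions with no test. Precision is limited by the number of tumors, and each tumor's value has no replicate. Positions are from GENCODE vM21 on GRCm38, where 95.0% of symbols matched 1 gene, and promoters from RefSeq (GRCm38.p6), where all 10 genes matched. The named genes were all 10 members, Plk2, the 5 genes most correlated with Mdm2, the 5 that share most raised tumors with it, and genes of the lists. Atxn7l3b, BC048403, Cand1, Llph, Srgap1, 9230105E05Rik and the complex partners were named after their values were seen. The alternatives were another pseudocount, other filters, an intensity trend, quantile and TMM scaling, tumors numbered 77xx only, each tumor left out, and other limits and medians for raised values. Alternatives for the window around Mdm2 were chosen after seeing the data.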

Additional observations from a re-analysis of the deposited data

How the results depend on the processing

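The genotype comparison called 6802 genes, between 6346 and 7074 with each tumor left out, and 2942 with only the Plk2-/-; p53-/- tumors numbered 77xx, which are fewer samples. Higher genes were 61.4% of the calls, 51.7% with quantile and 44.1% with TMM scaling, and the median difference over all genes moved from 0.10 to 0.00 and -0.07. Cpsf6 was called under every alternative run, with limma adjusted p of 0.0059 to 0.019 and differences of 0.99 to 1.65. Every run kept some of the raised Cpsf6 values that were known when the genes were chosen. The count of members called was 1 to 2 with each tumor left out, Frs2 being added without p53null-2224L or p53null-5317. Under TMM scaling the differences of Cct2 and Slc35e3 reversed to -0.057 and -0.098, and with each tumor left out they ran from -0.049 to 0.44 and from -0.076 to 0.44, and that of Cpm from -0.76 to 0.15, none of them called. The partner and target list had 9 calls (5 higher, 4 lower), 8 to 11 with each tumor left out, 3 with the 77xx tumors, 10 with quantile scaling (4 higher, 6 lower) and 9 with TMM scaling (1 higher, 8 lower), where Trp53, Usp7, Numb and Mtbp were lost and Ccng1, Trp63, Daxx and Foxo3 were added as lower. The list of the human segment had 2 calls, 2 to 5 with each tumor left out, 4 with quantile scaling, 5 with TMM scaling and 1 with the 77xx tumors. It was 4 or 5 without p53null-10155, p53null-2153L, p53null-5329, PLK2null-1980, PLK2null-7748 or PLK2null-7763, through Hmga2, Irak3, Tspan31 or Ddit3, and the cause was not tested. The 4 totals of raised values (all members, with Mdm2, without Mdm2, and the window) moved by less than 1.5 times under limits of 1.5 and 3 times the median, medians within a genotype, and both scalings, and Mdm2 was raised in 6 tumors under each. Single counts moved more: Slc35e3 went from 6 to 11 tumors at 1.5 times the median. The 20 raised neighbor values other than Cpm in tumors without raised Mdm2 became 33 at 1.5 times the median and 18 at 3 times. No paired analysis was possible because the labels give the groups no shared replicate numbers. Depth limits Cpm most, with about 24 fragments in T11.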
